A study of Homo sapiens with 26 samples.

Results

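The change in OMM enrichment of mRNAs upon loss of AKAP1 was described gene by gene. It is the log2 enrichment of OMM pulldown over total input in AKAP1 null cells minus that in wild-type cells, both treated with CHX. Of the 60663 genes counted by RNA-seq, all 13525 with a mean of at least 64 counts over the 4 total inputs of these genotypes were included. AKAP1 is a scaffold protein of the outer mitochondrial membrane (OMM) that anchors protein kinase A (PKA) and binds RNA. Most mitochondrial proteins are encoded in the nucleus and made by cytosolic ribosomes, and part of them is made by ribosomes at the mitochondrial surface, where the chain can enter the TOM and TIM import channels while it is still being made. LARP4, an RNA-binding protein of the La family, is a partner of AKAP1 at the OMM.

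All cells were HEK293T, a human embryonic kidney line, in which the endogenous ribosomal protein RPL29 carries the Avi tag that the biotin ligase BirA modifies. All lines also expressed LOV-BirA-GFP with the transmembrane domain of OMP25, a blue-light-dependent BirA held at the OMM, from the EF1α promoter after lentiviral delivery. CHX, which stops elongation, was given before labelling with biotin and light, and whole transcripts on biotinylated ribosomes were then pulled down from undigested lysate and sequenced beside the total input. The wild-type line carried a negative control gRNA. AKAP1 null and LARP4 null cells are each 1 monoclonal line, made with a lentiviral gRNA in Cas9-expressing cells and screened by Western blotting, so the effect of the genotype and that of the clone cannot be told apart. Each genotype has 2 lysates, each with a total input and a pulldown library. That gives 8 libraries for wild-type and AKAP1 null cells, of the 26 libraries of the series. Treatment of the null lines with CHX is taken from the general protocol. Nothing states that the lysates came from separate cultures, so p-values measure the spread between lysates. In these bulk samples fewer cells with a transcript and less RNA per cell cannot be told apart.

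The 8 libraries held 38347615 to 56001693 counts on genes. Across genes, the enrichments of the 2 lysates had a Pearson r of 0.958 in wild-type and 0.913 in AKAP1 null cells (13525 genes). The SD of the difference between lysates was 0.23 and 0.26 log2. The LARP4 null lysates stood apart from each other (r = 0.724, SD 0.50), and they enter the estimate of the spread. All 7 HEK293T markers checked were detected, with a summed level of 653 to 670 CPM (counts scaled to the library total) in wild-type and 747 to 797 in AKAP1 null total inputs, against at most 1.86 for the blood list, 0.243 for liver, 23.8 for fibroblast and 0.167 for endothelium. Most of the HEK293T sum was VIM, at 475 to 625 CPM. PAX2, LHX1 and KRT8 lay below COL1A1 of the fibroblast list in each total input, and NEFM, NEFL and KRT18 above it. In the blood list PTPRC was at 0 in both AKAP1 null total inputs and CD3E in all 4 total inputs. Their part in the results was not tested.

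The targeted gene came first. The sequence aimed at by the AKAP1 gRNA is shown because it defines the null line, with the site in lower case and the adjoining PAM in capitals.
AKAP1 gRNA site: acagacatgagattgcgaccAGG
It lies at chr17:57105807-57105829 on the plus strand of GRCh38, in exon 2 of AKAP1 (ENSG00000121057, chr17:57085092-57121346), which is the first coding exon. AKAP1 was counted at 115 and 119 CPM in the wild-type total inputs and at 32.2 and 20.3 CPM in those of AKAP1 null cells. In the pulldown it stood at 144 and 181 CPM in wild-type and at 22.6 and 13.4 CPM in AKAP1 null cells. Both null values lay below both wild-type values in either fraction. The log2 difference in total input was -2.15 (SE 0.22), which did not pass the test over 13525 genes (edgeR quasi-likelihood, adjusted p = 0.447), and the remaining transcript does not report protein. The log2 enrichment of AKAP1 itself was 0.34 and 0.60 in wild-type and -0.51 and -0.60 in AKAP1 null lysates, a fall of 1.02 (SE 0.19, edgeR adjusted p = 0.0111).

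In AKAP1 null cells, OMM enrichment rose for 896 genes (6.62% of those tested) and fell for 1063 (7.86%) at an adjusted p below 0.05 in the edgeR test. All 1959 had the same sign in all 4 pairings of a null with a wild-type lysate. The calls rest on the same values, and the share over all genes was not counted, so this is no separate support. Falls were found mainly among genes for short proteins (below 200 aa), mitochondrial or not, and the highest shares of rises among mitochondrial genes for long proteins (above 400 aa). The median change over all genes was 0.19, so a change of 0 is not the middle of the distribution. With TMM scaling the median was 0.01, lower by 0.18, which left 271 rises (2% of the genes tested) and 1376 falls (10.2%). All 1063 falls and 271 of the 896 rises were also called with TMM. Without wild-type lysate 1 or 2 there were 120 or 130 rises and 437 or 358 falls, and without AKAP1 null lysate 1 or 2 there were 207 or 159 rises and 540 or 428 falls. Without LARP4 null lysate 1 or 2, which vary most, the counts were 4532 or 4526 rises and 1863 or 1868 falls. Values below are on the scale of library totals, and TMM counts stand beside those of the groups whose calls or sign they move.

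**Figure D1:**
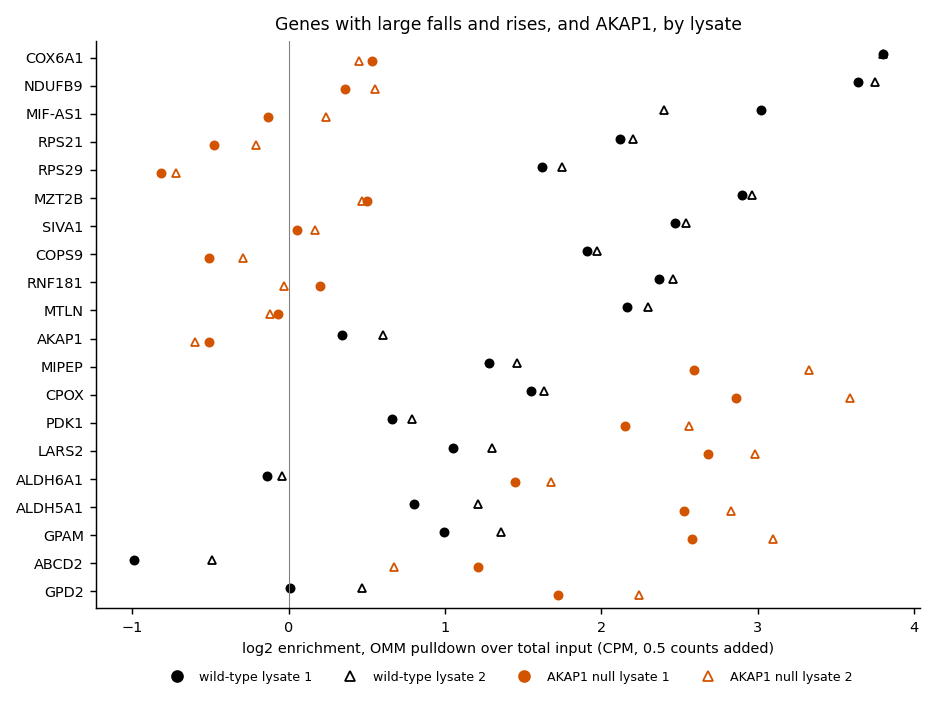
Log2 enrichment (pulldown over total input, CPM with 0.5 counts added; horizontal axis) in each wild-type (black) and AKAP1 null (orange) lysate, circles for lysate 1 and triangles for lysate 2, for AKAP1 and the 10 genes with the largest falls and 9 with large rises. Falls and rises were picked among called genes whose 2 null lysates lie on 1 side of both wild-type lysates. Examples are COX6A1 (3.8 in both against 0.53 and 0.45) and GPD2 (0.01 and 0.47 against 1.72 and 2.24).

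The largest falls were those of COX6A1 and NDUFB9. COX6A1 (ENSG00000111775, GRCh38 chr12:120438090-120440737, 109 aa), a subunit of cytochrome c oxidase, was pulled down at 892 and 932 CPM in wild-type and at 99.6 and 85.0 CPM in AKAP1 null cells. Its total input was 64 and 66.9 CPM in wild-type and 68.8 and 62.1 CPM in AKAP1 null cells. The groups were far apart in the pulldown and overlapped in the total input. The log2 enrichment fell by 3.31 (SE 0.14, edgeR adjusted p = 8.58e-05). NDUFB9 (179 aa), a subunit of NADH dehydrogenase, was pulled down at 1362.3 and 1404.9 CPM in wild-type and 141 and 137 CPM in AKAP1 null cells. Its enrichment was 3.64 and 3.75 against 0.36 and 0.55, and it fell by 3.23 (SE 0.15, adjusted p = 9.63e-05). These were the 2 most enriched short mitochondrial transcripts in wild-type cells, and in AKAP1 null cells they lay among the other short ones.

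Other large falls were shared between mitochondrial and cytosolic proteins. RPS21 (ENSG00000171858, GRCh38 chr20:62387103-62388520, 83 aa), a protein of the small cytosolic ribosomal subunit, was pulled down at 1468.4 and 1354.0 CPM in wild-type and 280 and 242 CPM in AKAP1 null cells, and its enrichment fell by 2.51 (SE 0.14, adjusted p = 0.000153). RPS29, of the same subunit, fell by 2.46. MZT2B, a component of γ-tubulin complexes at the centrosome, had an enrichment of 2.90 and 2.96 in wild-type and 0.50 and 0.47 in AKAP1 null lysates, a fall of 2.44. SIVA1, a pro-apoptotic adaptor, fell by 2.40, COPS9, of the COP9 signalosome, by 2.34, and RNF181, a ubiquitin ligase, by 2.33. MTLN encodes a microprotein of 56 aa in the inner mitochondrial membrane and is not on the list of mitochondrial genes used. Its enrichment was 2.16 and 2.30 in wild-type and -0.07 and -0.12 in AKAP1 null lysates, a fall of 2.32. The values of these genes did not overlap between genotypes, which was a condition for ranking among the largest falls. The remaining one among the 10 largest falls is the noncoding antisense gene MIF-AS1 (fall of 2.65), for which reads cannot be told apart from those of its overlapping partner without a stated strand setting.

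The 9 genes given here for large rises all encode mitochondrial or peroxisomal proteins. GPD2 (ENSG00000115159, GRCh38 chr2:156435290-156613735, 727 aa), the mitochondrial glycerol-3-phosphate dehydrogenase, was pulled down at 45.0 and 47.7 CPM in wild-type and at 123 and 172 CPM in AKAP1 null cells. Its total input was 44.7 and 34.4 against 37.2 and 36.5 CPM. Only the pulldown separated the genotypes. The enrichment went from 0.01 and 0.47 to 1.72 and 2.24, a rise of 1.74 (SE 0.22, adjusted p = 0.00142). GPAM, which starts glycerolipid synthesis at the OMM, rose by 1.67, and CPOX, of haem synthesis, by 1.63. ALDH5A1 and ALDH6A1, which oxidise semialdehydes in the matrix, rose by 1.67 and 1.66. LARS2, the mitochondrial leucyl-tRNA synthetase, rose by 1.65, PDK1, a kinase of pyruvate dehydrogenase, by 1.63, and MIPEP, a presequence peptidase, by 1.59. ABCD2, a peroxisomal fatty acid transporter on the list of mitochondrial genes used, rose by 1.72 with the widest error of the 9 (SE 0.38, adjusted p = 0.0205), at 0.773 to 3.54 CPM in the 4 pulldowns.

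Of the genes the study followed singly in AKAP1 null cells, the short ones fell and the long ones rose. COX5B and COX7A2 encode subunits of cytochrome c oxidase. The enrichment of COX5B was 2.64 and 2.76 in wild-type and 0.82 and 0.50 in AKAP1 null lysates, a fall of 2.04 (SE 0.17, adjusted p = 0.000394). COX7A2 stood at 2.73 and 2.85 against 0.73 and 0.32, a fall of 2.27 (SE 0.16, adjusted p = 0.000271). ALDH18A1, which makes the proline precursor in mitochondria, was already enriched in wild-type cells (1.85 and 2.00) and stood at 3.0 and 3.32 in AKAP1 null lysates, a rise of 1.24 (SE 0.15, adjusted p = 0.00135). PMPCA, a subunit of the presequence peptidase, went from 2.82 and 3.02 to 3.84 and 4.32, a rise of 1.17 (SE 0.17, adjusted p = 0.00323). TBRG4, an RNA-binding FASTK-family protein of the matrix, stood at -0.07 and -0.11 against 0.32 and 0.36. Its rise of 0.43 (SE 0.11, adjusted p = 0.0396) was not called with TMM (0.25, adjusted p = 0.29).

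Coding length separated the directions. Among the 1011 nuclear-encoded mitochondrial genes tested, 245 rose and 225 fell, with a median of 0.07. With TMM 183 rose and 264 fell, with a median of -0.10, so neither the sign of the median nor the leading direction of the whole list held on both scales. The 254 short ones held 167 falls and 0 rises (median -0.87). The 356 long ones held 205 rises and 6 falls (median 0.73), and the 401 of 200 to 400 aa held 40 rises and 52 falls (median 0.00). With TMM the calls were 184 falls among the short genes, 168 rises and 7 falls among the long ones, and 15 rises and 73 falls in between. Leaving out any 1 lysate left 98 to 205 falls among the short and 91 to 269 rises among the long genes. The median enrichment of the short genes was 1.14 and 1.25 in the wild-type lysates and 0.35 and 0.27 in the AKAP1 null lysates. That of the long genes was 0.16 and 0.28 in wild-type and 0.77 and 1.06 in AKAP1 null lysates.

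By finer length, the median change of mitochondrial genes went from -1.44 below 100 aa (49 of 58 fell) through -0.94 from 100 to below 150 aa (68 of 93 fell) and -0.53 from 150 to below 200 aa (50 of 103 fell). In steps of 50 aa it was -0.26 from 200, -0.08 from 250, 0.08 from 300 (-0.10 with TMM) and 0.26 from 350 aa. Above that, 58 of 127 genes from 400 to below 500 aa, 85 of 137 from 500 to below 700 aa and 62 of 92 from 700 aa rose, with medians of 0.55, 0.86 and 0.96. Across the 1011 genes the change had a Spearman correlation of 0.79 with protein length and 0.61 with mRNA length, given as a description since both lengths come from the same gene models. The median of the whole distribution is crossed between 300 and 400 aa.

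**Figure D2:**
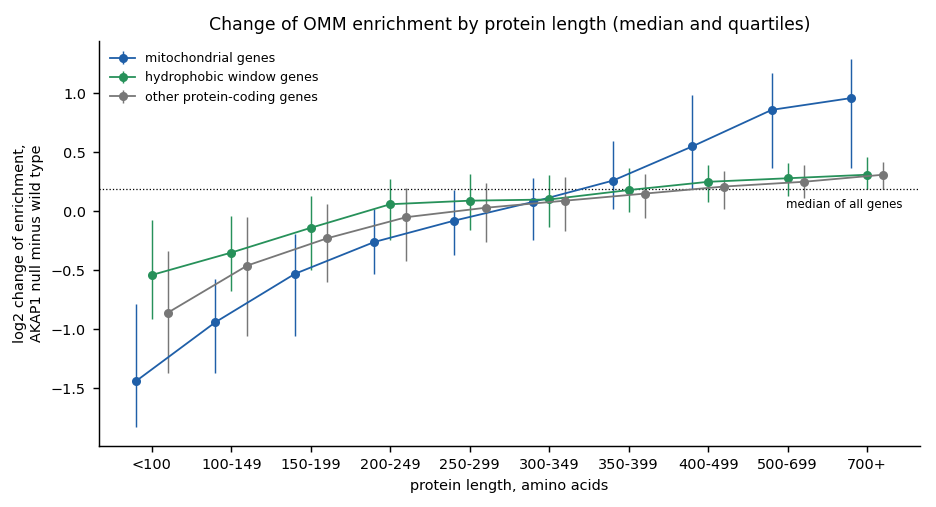
Median change of log2 enrichment (AKAP1 null minus wild type, vertical axis) with quartiles as bars, by protein length in amino acids (horizontal axis), for mitochondrial genes, genes with a hydrophobic window and other protein-coding genes; the dotted line is the median of all genes (0.19). The medians of all 3 classes lie below that line for the shortest proteins. From 400 aa the mitochondrial medians (0.55 to 0.96) exceed those of both other classes (at most 0.31), while the quartile bars overlap.

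Non-mitochondrial genes shared the falls of short genes, and their long genes rose at a share near that of all genes. Protein-coding genes outside the mitochondrial list were divided by whether the protein has a window of 19 residues with a mean hydropathy of at least 1.6, a mark of membrane spans and signal peptides. Of the 916 short genes without such a window, 340 fell and 9 rose (median -0.36), and their median enrichment was 0.45 and 0.51 in wild-type and 0.16 and 0.04 in AKAP1 null lysates. Without the cytosolic ribosomal proteins 286 of 860 fell. Of the 279 short genes with a window, 73 fell and 2 rose (median -0.27). With TMM 395 fell and 1 rose in the first of these classes, and 87 fell and 1 rose in the second. Of the 6815 long non-mitochondrial genes, 473 rose (6.94%) and 54 fell (0.792%), against 6.62% and 7.86% of all genes. With TMM 66 rose and 94 fell. Their median was 0.28, and 0.11 with TMM. The rises of long non-mitochondrial genes were thus mostly calls that the shift of the whole distribution decides, while 168 of the rises of long mitochondrial genes were called on either scale.

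The number of strongly enriched transcripts dropped. A log2 enrichment above 1 in both lysates was found for 764 of the 13525 genes in wild-type and 195 in AKAP1 null cells. Among short mitochondrial genes it was 142 of 254 in wild-type and 0 in AKAP1 null cells. Among long mitochondrial genes it was 61 of 356 in wild-type and 149 in AKAP1 null cells, with 59 in both. Among short genes of the other protein-coding class it was 247 of 916 and 2. Enriched transcripts in AKAP1 null cells were thus mostly long mitochondrial ones, 149 of the 195. These counts rest on a fixed threshold and carry no test.

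**Figure D3:**
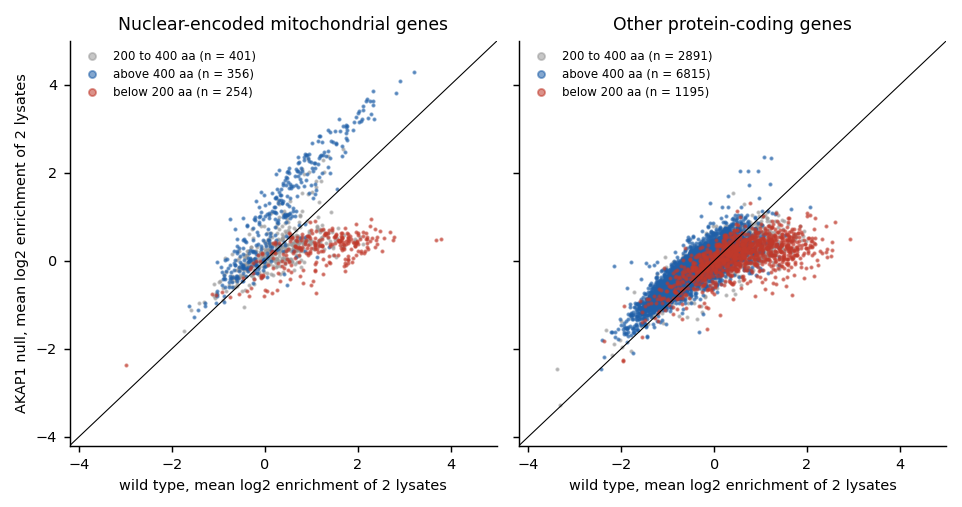
Mean log2 enrichment of 2 lysates in wild-type (horizontal axis) and AKAP1 null cells (vertical axis), 1 point per gene, for nuclear-encoded mitochondrial genes (left) and other protein-coding genes (right), coloured by protein length, with the line of equality. Short mitochondrial genes (red), with wild-type medians of 1.14 and 1.25, flatten to AKAP1 null medians of 0.35 and 0.27, long mitochondrial genes (blue) lie above the line, and on the right short genes bend below it.

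Compartment was held for part of the mitochondrial list, 301 of the 1011 genes tested having none. Genes of each membrane and space followed length. Among matrix proteins, 119 of 355 rose and 63 fell (86 and 81 with TMM), with 101 of 147 long ones rising and 0 falling (median 0.87) and 36 of 59 short ones falling (median -0.72). Among inner membrane proteins, 43 of 208 rose and 76 fell (34 and 84 with TMM), with 63 of 71 short ones falling (median -1.41) and 36 of 58 long ones rising (median 0.90). In the intermembrane space 12 of 16 short genes fell and 5 of 12 long ones rose. At the outer membrane 10 of 16 short genes fell (median -0.67), and 6 of 20 long ones rose (median 0.35). The shortest genes include many inner membrane subunits, so that compartment and length are confounded in this list.

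OXPHOS subunits encoded in the nucleus mostly fell. These are the proteins of the respiratory chain and of ATP synthase in the inner membrane. In complex I, 25 of 37 genes fell and 4 rose (median -1.16), and 27 fell and 2 rose with TMM. After NDUFB9 the largest falls were those of NDUFB1 (1.96, from 2.10 and 2.19 to 0.07 and 0.29) and NDUFB3 (1.91), both membrane-arm subunits. Those that rose include the longer proteins NDUFA10 (1.13), NDUFV1 (0.79) and NDUFA9 (0.70), of which the last 2 were not called with TMM (adjusted p = 0.0706 and 0.111). The remaining rise, of a long protein, was 1.12 and was also called with TMM. In complex IV all 11 genes fell (median -1.83), among them COX6C by 2.30. In complex III 5 of 9 fell and 2 rose. UQCRQ fell by 2.28, UQCR11 fell by 2.05 and UQCRH fell by 1.57, all small subunits, whereas the core subunits UQCRC1 and UQCRC2 rose by 1.08 and 1.25. In ATP synthase 13 of 17 fell, led by ATP5MC1 (2.06), a copy of the c-ring subunit, ATP5ME (1.94) and ATP5F1E (1.68), and the catalytic-core subunits ATP5F1A and ATP5F1B rose by 1.33 and 1.14. In complex II, SDHA, the flavoprotein of 664 aa, rose by 1.51 (0.77 and 1.01 against 2.34 and 2.46), SDHB, the iron-sulfur subunit of 280 aa, fell by 0.70, and the other 2 were not called. Subunits of 1 complex thus went in opposite directions. None of the 13 protein-coding genes of the mitochondrial genome had a count in any library, so they could not be tested.

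Assembly factors and mitochondrial ribosomal proteins went with their length too. Of 23 complex IV assembly factors 12 fell and 2 rose (12 and 1 with TMM, median -0.64), with falls of 1.96 for CMC1, 1.91 for PET100 and 1.84 for the copper chaperone COX17. Of 14 complex I assembly factors 5 fell and 3 rose (6 and 2 with TMM), with NDUFAF8 (1.82), NDUFAF2 (1.31) and NDUFAF3 (0.96) as the largest falls. Of the 76 mitochondrial ribosomal proteins 31 fell and 4 rose (38 and 2 with TMM, median -0.42), led by MRPL51 (1.91) and MRPL33 (1.82) of the large subunit and MRPS24 (1.5) of the small one. The short ones accounted for 26 of these falls.

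Many genes of the machinery that reads and copies mitochondrial genes rose. Of 16 mitochondrial aminoacyl-tRNA synthetases, which charge tRNAs in the matrix, 12 rose and 0 fell (median 1.20), also 12 and 0 with TMM. Beside LARS2 the largest rises were those of YARS2 (1.42, from 1.36 and 1.67 to 2.76 and 3.11) and SARS2 (1.39). None of the 20 cytosolic aminoacyl-tRNA synthetases, all long proteins, was called with edgeR (5 at an unadjusted p below 0.05, 0 called with TMM or DESeq2; median 0.20), the largest change being 0.38 for GARS1 (adjusted p = 0.0737). Among 11 mitochondrial translation factors 5 rose, with GFM1 (1.45), GUF1 (1.38) and GFM2 (1.30) at the top, all GTPases of elongation or recycling, and 1 fell. Of 27 genes of mitochondrial DNA and RNA metabolism 17 rose and 4 fell (12 and 4 with TMM, median 0.64). ELAC2, the nuclease that trims tRNA 3′ ends, rose by 1.53 and FASTKD1, an RNA-binding protein, by 1.51, whereas SLIRP, a small RNA-binding partner of LRPPRC, fell by 1.79 (109 aa, from 2.12 and 2.27 to 0.40 and 0.41).

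Many enzymes of the matrix rose. Of 19 genes of pyruvate dehydrogenase and the TCA cycle 14 rose and 0 fell (12 and 0 with TMM, median 0.99). These include DLD, the shared dehydrogenase of 2-oxoacid complexes (1.53, from 2.15 and 2.5 to 3.69 and 4.03), SDHA, which is also part of the cycle, and SUCLG2 (1.41). CS, citrate synthase, rose by 1.28. In fatty acid oxidation 7 of 16 rose and 2 fell. The 7 were all among the 8 long ones, led by CPT2 (1.5), of the carnitine shuttle, HADHB (1.31) and ETFDH (1.20). Of 17 genes of branched-chain amino acid and propionate breakdown 11 rose and 0 fell (10 and 1 with TMM, median 0.95), and beside ALDH6A1 the largest were MMUT (1.57) and ACADSB (1.45). In proline and one-carbon metabolism 6 of 12 rose, with ALDH1L2 (1.54), GLDC (1.49) and OAT (1.26) ahead. In coenzyme Q synthesis 3 of 12 rose (COQ3 1.00, COQ8B 0.99, PDSS2 0.96) and 1 fell. These are 25% and 8.33%, against 6.62% and 7.86% of all genes. The list's median of 0.16 became -0.02 with TMM.

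Import proteins were split. Of 13 genes of the TOM and SAM complexes and VDAC porins, 4 fell (30.8%) and 1 rose (7.69%), against 7.86% and 6.62% of all genes. The rise was called with neither TMM nor DESeq2. The small TOM subunits TOMM7 (55 aa), TOMM5 and TOMM22 fell by 1.86, 1.31 and 1.15. In the TIM22 and TIM23 complexes and import motor 3 of 15 fell and 3 rose, 20% each (4 and 2 with TMM). ROMO1 (79 aa) fell by 1.95, TIMM17B fell by 1.24, and HSPA9, the mitochondrial HSP70, rose by 1.40 (0.38 and 0.38 against 1.76 and 1.79). The small TIM chaperones of the intermembrane space fell for 4 of 6, TIMM8B by 1.79, TIMM10 by 1.58 and TIMM13 by 1.12. Of 8 CHCHD twin-cysteine proteins, which the same space oxidises, 6 fell, with CHCHD2 (1.84), CHCHD5 (1.77) and CHCHD10 (1.74) in front.

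Peptidases, chaperones and proteases of the matrix and inner membrane rose for 13 of 19 and fell for 3 (11 and 3 with TMM, median 0.91). After MIPEP came PITRM1 (1.52), a peptidase that degrades presequences, and HSPD1 (1.45), the mitochondrial HSP60. HSPD1 stood at 2679.4 and 2952.6 CPM in the wild-type and at 8531.2 and 8986.5 CPM in the AKAP1 null pulldown. HSPD1 has processed pseudogenes that can share reads, so its level is uncertain. SLC25 carriers, which cross the inner membrane as bundles of helices and lack a cleaved presequence in most members, held 2 rises (4.88%) and 3 falls (7.32%) among 41 genes, shares near the 6.62% and 7.86% of all genes, with a median of -0.02. With TMM 1 rose and 6 fell. The largest changes were SLC25A39 (-0.92), SLC25A26 (-0.89) and SLC25A46 (0.80). Among 15 genes of fusion, fission and MICOS 3 rose (20%) and 4 fell (26.7%), against 6.62% and 7.86% of all genes. The falls include MICOS10 (1.57), FIS1 (1.37) and MICOS13 (1.14).

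**Figure D4:**
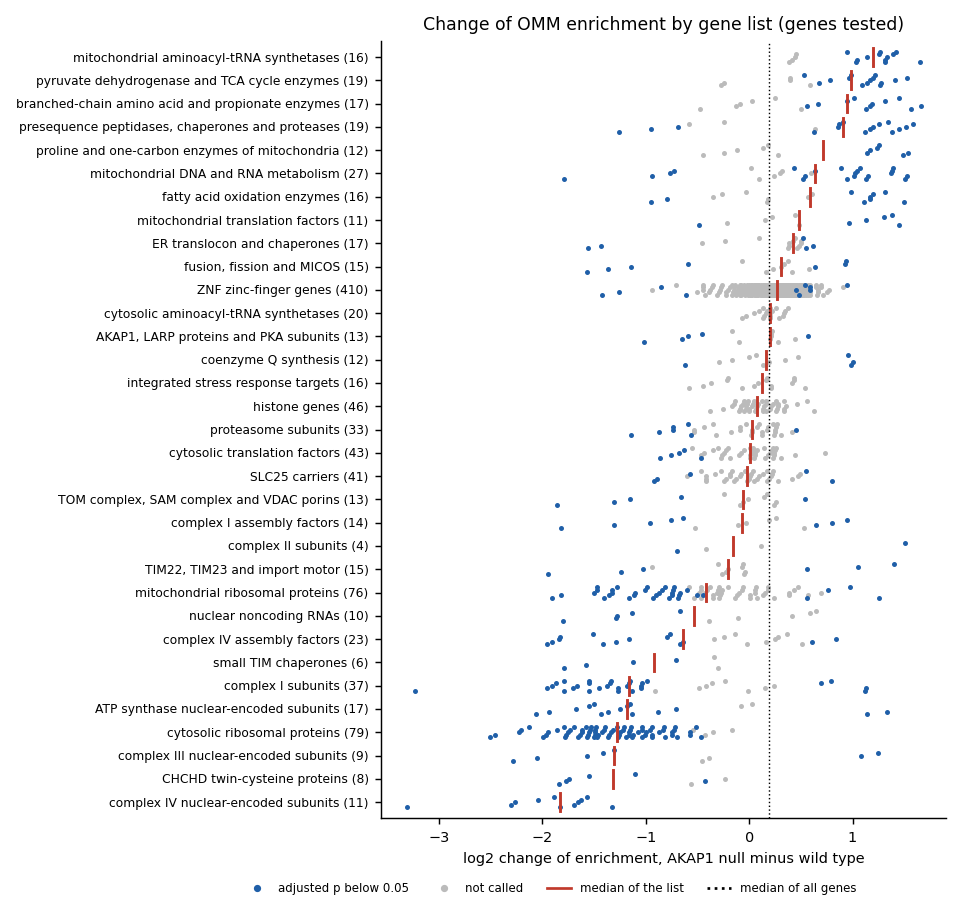
Change of log2 enrichment (AKAP1 null minus wild type, horizontal axis) of every tested member of each gene list, blue where called and grey where not, with the list median in red and the median of all genes dotted. Lists of short OXPHOS subunits and cytosolic ribosomal proteins lie on the left (complex IV median -1.83) and those of synthetases and matrix enzymes on the right (synthetase median 1.20), and several lists hold blue points on both sides.

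Among the cytosolic lists examined, ribosomal proteins held the most falls. Of 79 tested, 75 fell and 0 rose (median -1.28), and 76 fell with TMM. RPL23A fell by 2.23 (2.02 and 2.14 against -0.15 and -0.15) behind RPS21 and RPS29. RPL29, the tagged protein, stood at 0.56 and 0.61 in wild-type and 0.44 and -0.13 in AKAP1 null lysates and was not called (-0.43, adjusted p = 0.144). Most of these genes have processed pseudogenes, so part of their reads is uncertain. Among 43 cytosolic translation factors 5 fell and 0 rose (8 and 0 with TMM), with EIF4G1, EEF1B2 (0.76) and EIF1 (0.68) in front. The falls are 11.6% of this list, against 7.86% of all genes. The list's median of 0.01 became -0.16 with TMM. EIF4G1, the large scaffold of the cap-binding complex (1599 aa), fell by 0.86 (2.20 and 1.93 against 1.20 and 1.22), and it stands among the few long proteins whose transcripts fell.

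Other cytosolic and nuclear lists gave fewer calls. Of 33 proteasome subunits 6 fell (18.2%) and 1 rose (3.03%), against 7.86% and 6.62% of all genes (median 0.03, and -0.15 with TMM). The rise was called with neither TMM nor DESeq2. PSMA7 fell by 1.14, PSMB6 by 0.87 and PSMD9 by 0.74. None of 46 histone genes was called with edgeR (3 at an unadjusted p below 0.05; 0 with TMM and 1 with DESeq2; median 0.08, and -0.09 with TMM). The one furthest from 0 was H2AC17, at 0.63 (adjusted p = 0.102). Of 410 ZNF zinc-finger genes, mostly long nuclear proteins, 6 rose (1.46%) and 4 fell (0.976%), with a median of 0.27. With TMM 1 rose and 6 fell. The short or medium proteins ZNF511 and ZNF593 fell by 1.42 and 1.26, and ZNF638, of 1978 aa, rose by 0.95. Of 17 genes of the ER translocon and its chaperones 3 rose (17.6%) and 2 fell (11.8%), against 6.62% and 7.86% of all genes. The falls were the small translocon subunits SEC61B (1.56) and SEC61G (1.43), and the rise of CANX (0.62), the lectin chaperone calnexin, was not called with TMM, as was the case for the other 2 rises. None of 16 integrated stress response targets was called with edgeR (5 at an unadjusted p below 0.05, 2 called with TMM and 1 with DESeq2), DDIT3 being furthest from 0 (-0.58, adjusted p = 0.098). The list's median of 0.12 became -0.05 with TMM. Of the 13 genes for AKAP1, LARP proteins and PKA subunits 4 fell (30.8%) and 1 rose (7.69%), against 7.86% and 6.62% of all genes. The rise was called with neither TMM nor DESeq2. Beside AKAP1, the PKA regulatory subunits PRKAR2B (0.65) and PRKAR2A (0.46), and LARP6 (0.59), fell.

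Genes outside the mitochondrial list that rose most were led by long proteins. NRIP1, a nuclear receptor corepressor of 1158 aa, went from 0.46 and 0.64 to 1.8 and 2.25 (1.47, SE 0.25, adjusted p = 0.00631). RESF1, a nuclear retroelement silencer, rose by 1.40, CYP27C1, a cytochrome P450, by 1.31, EXPH5, a Rab27 effector, by 1.30, and ARHGEF4, a guanine nucleotide exchange factor, by 1.28. All 5 were also called with TMM, as were 83 non-mitochondrial protein-coding genes that rose.

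Of 1602 genes not annotated as protein-coding 5 rose (0.312%) and 141 fell (8.8%), against 6.62% and 7.86% of all genes (median -0.02, and -0.20 with TMM). The falls include those of 91 of 1087 lncRNAs (8.37%), and 34 of 141 processed pseudogenes, of which 24 belong to the 42 pseudogenes of cytosolic ribosomal proteins and share sequence with genes that fell. Of 10 nuclear noncoding RNAs listed, 5 fell, among them the snoRNA host genes SNHG8 (1.8), SNHG5 (1.29) and SNHG6 (1.28), whose spliced transcripts reach the cytosol. SNHG8 was pulled down at 88.3 and 79.1 CPM in wild-type and 30.7 and 26.3 CPM in AKAP1 null cells. The 2 genotypes did not overlap for it.

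Ribosome profiling at the OMM gives a measure from other libraries of the same cell system. It was made from wild-type cells, so it is independent of the change in AKAP1 null cells, but the RNA-seq enrichment of wild-type cells, which the change contains, measures the same property. Locally translated genes are taken as those with a log2 enrichment of footprints above 1.5 in replicate 1. All 31 locally translated short mitochondrial genes fell (median -1.83), from a median enrichment of 2.04 and 2.19 to 0.46 and 0.32. Of the 50 locally translated long ones 48 rose (median 1.28), from 0.98 and 1.31 to 2.19 and 2.73, and the 1 that fell was AKAP1. With replicate 2 the same counts were 39 of 39 and 47 of 49, and with a threshold of 1 they were 74 of 76 and 63 of 69.

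Calls were fewer among genes with less local translation. Of 19 short mitochondrial genes at or below 0 in ribosome profiling, 3 fell (median -0.07), and of 123 above 0 and up to 1.5, 90 fell (median -0.88). Of 97 long ones at or below 0, 38 rose (median 0.38), and of 107 in between, 69 rose (median 0.89). Across short mitochondrial genes the change had a Spearman correlation of -0.78 with the footprint enrichment (173 genes), and across long ones of 0.64 (254 genes). Outside the mitochondrial list, 59 of 60 short genes above 1.5 in ribosome profiling fell (median -1.64), and the Spearman correlation was -0.75 over 584 short genes without a hydrophobic window. Only 6 long non-mitochondrial genes were above 1.5, of which 4 rose, NRIP1 among them at 3.23, and 1 fell. Long non-mitochondrial genes had a correlation of -0.23 without a hydrophobic window (2643 genes) and -0.01 with one (1273 genes). Their median change was 0.31 at or below 0 in ribosome profiling (3468 genes) and 0.21 above 0 and up to 1.5 (442 genes). These correlations describe genes that share the wild-type condition and carry no test.

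**Figure D5:**
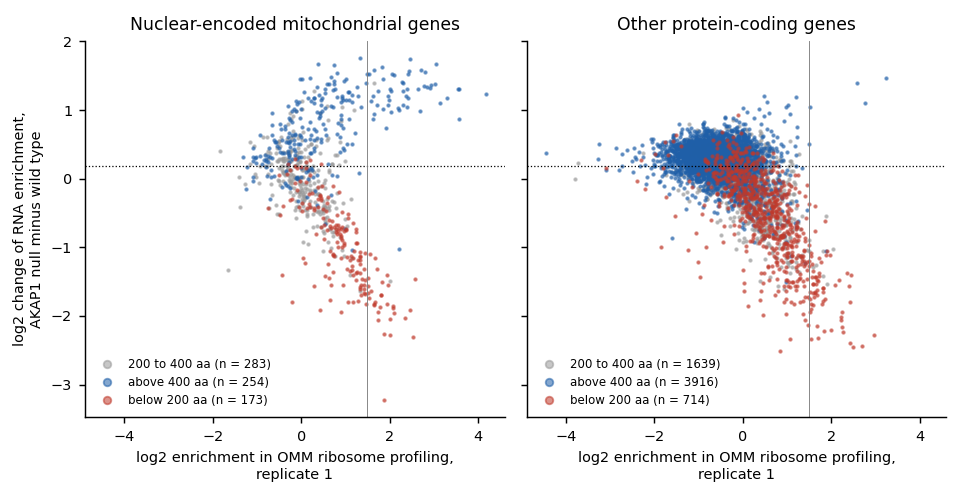
Change of log2 RNA enrichment (AKAP1 null minus wild type, vertical axis) against log2 enrichment of ribosome footprints at the OMM in replicate 1 (horizontal axis), by protein length, for nuclear-encoded mitochondrial genes (left) and other protein-coding genes (right); the vertical line marks 1.5 and the dotted line the median of all genes (0.19). On the left short genes (red) go down and long genes (blue) go up as footprint enrichment grows, and on the right the downward arm of short genes is seen with few long genes above 1.5.

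Short mitochondrial genes that fell differed in their gene models from those that were not called. The 167 that fell had a median protein of 126 aa, a median mRNA of 891 nt and a median 3′ UTR of 388 nt, against 166 aa, 1650 nt and 978 nt for the 87 not called. Among short genes of the other protein-coding class the medians were 128 aa and 934 nt for the 340 that fell and 156 aa and 2151 nt for the 567 not called. Within short mitochondrial genes, the Spearman correlation of the change was 0.57 with mRNA length, 0.47 with 3′ UTR length and 0.45 with protein length (254 genes). Genes with short mRNAs thus lay lower than those with long mRNAs also within the short class.

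Some genes went against their length class, and they were chosen after their values were seen. The 6 long mitochondrial genes that fell were AKAP1, CPT1C (1.06), NDUFV3 (1.04), FASTK (0.73), MTX1 (0.66) and FLAD1 (0.59). NDUFV3, a complex I subunit for which the annotation holds a protein of 473 aa, stood at 1.14 and 1.12 in wild-type and 0.05 and 0.11 in AKAP1 null lysates. Of mitochondrial genes below 300 aa 7 rose, C1QBP (0.84), a matrix chaperone-like protein, TFAM (0.64), which packs mitochondrial DNA, BNIP3L (0.61), GRPEL2 (0.56), IDI1 (0.55), TMEM65 (0.55) and STOM (0.54). None of these 7 was called with TMM. Of the 254 short mitochondrial genes 9 lay above the median of all genes and 0 of them were called. They include SYNJ2BP (0.38, adjusted p = 0.068), whose protein is OMP25, and the pro-apoptotic BH3 genes PMAIP1 (0.29), BCL2L11 (0.23) and BBC3 (0.20). Outside the mitochondrial list 11 short genes rose (2 with TMM), CD164 furthest (0.93), and 54 long ones fell, KRT10 (1.5), SLC27A5 (1.44) and KIF9 (1.30) in front.

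Total inputs of AKAP1 null and wild-type cells were compared because they stand in the denominator. None of 13525 genes was called (edgeR with TMM, 474 at an unadjusted p below 0.05), and none with library totals (493). AKAP1 itself, at a log2 difference of -2.15 (SE 0.22), was not called in this edgeR test (adjusted p = 0.447). The absence of calls thus does not show that total inputs were unchanged. Of the 1011 mitochondrial genes 24 were at an unadjusted p below 0.05. The median log2 difference was 0.00 for short and -0.03 for long mitochondrial genes. For COX6A1, NDUFB9, RPS21, GPD2, ALDH18A1 and PMPCA the log2 difference in total input lay between -0.09 and 0.22. Their differences in enrichment were more than 1 in size. Among other large rises, it was -0.32 for ALDH5A1, -0.26 for ALDH6A1, -0.21 for CPOX and -0.13 for GPAM. LARS2, PDK1 and ABCD2 each stood at -0.19 in total input. The enrichment of these genes rose by 1.63 to 1.72.

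LARP4 null cells give the same measurement in another line. This comparison shares the wild-type libraries with that of AKAP1 null cells, so that only each comparison's own values are given. None of 14142 genes was called in LARP4 null against wild-type cells with edgeR (2295 at an unadjusted p below 0.05, and 1730 with TMM, again with 0 called), with a median of -0.41 for short and -0.02 for long mitochondrial genes, against -0.87 and 0.73 in AKAP1 null cells. The median over all genes was 0.17 in LARP4 null cells (13513 genes) and 0.19 in AKAP1 null cells. A change of 0 is thus not the middle of either distribution. COX6A1 stood at 3.15 and 2.87 in LARP4 null lysates, between wild-type and AKAP1 null values, and GPD2 at 0.13 and 0.40. Without LARP4 null lysate 1 the number of genes called was 5759, and without lysate 2 it was 100, so the count depends on which lysate is kept.

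Compared directly, AKAP1 null cells had higher enrichment than LARP4 null cells for 239 of 14193 genes (1.68%) and lower enrichment for 406 (2.86%). Of the 1011 mitochondrial genes 212 were higher and 94 lower, 178 of the higher ones being long and 81 of the lower ones short. Enrichment of GPD2 was higher by 1.71 (SE 0.21, adjusted p = 0.0034) and that of HSPD1 by 1.71 (SE 0.13, adjusted p = 0.00166), whereas NDUFB9 was lower by 2.73 in AKAP1 null cells (SE 0.15, adjusted p = 0.000342). EIF4G1, at 2.07 and 2.19 in LARP4 null lysates, was lower by 0.92 in AKAP1 null cells (SE 0.13, adjusted p = 0.00666). The number of calls was 267 without AKAP1 null lysate 1 and 0 without lysate 2, and it was 4791 without LARP4 null lysate 1 and 2194 without lysate 2.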

How the data were processed

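RNA-seq libraries were made with rRNA depletion and read as pairs. The authors aligned them with STAR to GRCh38 (Ensembl 99) and deposited counts per gene from featureCounts. The strand setting is not given in the sources used here. The deposited values named FPKM are a score of 10 times FPKM and were not tested. For ribosome profiling, the authors deposited estimated counts and RPKM per gene from TopHat and plastid, of which the RPKM gave a log2 enrichment per replicate. A broken entry (ANK2), on 3 to 7 lines of each RNA-seq file, was dropped, so 60663 genes remained.

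Enrichment per lysate was log2 CPM of the pulldown minus that of the total input, with 0.5 counts added. Counts were tested with edgeR 4.0.16 (quasi-likelihood, two-sided) in R 4.3.3. The 12 RNA-seq libraries with CHX entered 1 fit with a term per lysate, a pulldown effect per genotype and library totals as scale. Benjamini-Hochberg adjustment ran over all genes tested, and called means an adjusted p below 0.05. Total inputs were compared with TMM over 6 libraries. Alternatives were TMM, DESeq2 1.42.0, other minimums and blocks, and left-out lysates. Python 3.11.15, numpy 2.4.6, pandas 2.3.3 and matplotlib 3.10.9 made tables and figures. On simulated counts for 13525 genes with 200 changed, 71.5% were recovered at a log2 change of 1, with 11 genes called without a change, and 2.5% at 0.5, with 4.

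Nuclear-encoded mitochondrial genes and their compartments came from the study's supplementary sheets, and coordinates and lengths from GENCODE 44 on GRCh38. Pulldown and total input of 1 number are from the same lysate, per the paper. Deviations of same-numbered lysates correlated at -0.04, -0.07 and -0.01 between genotypes, so the numbers were not used to pair genotypes. This cannot exclude that same-numbered lysates were prepared together. Genes are named where the study followed them singly in AKAP1 null cells, as the 10 largest rises and 10 largest falls (1 of these is not reported here), as the 5 largest of each outside the mitochondrial list, or as the 3 called members of a list with the largest change (1 where none was called). Others were named after their values were seen. Genes and lists were chosen with earlier results of these data known.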

Additional observations from a re-analysis of the deposited data

Results flagged for a closer look

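The change of OMM enrichment differed between the AKAP1 null and LARP4 null lines in a direct test (edgeR quasi-likelihood, all 12 libraries): 239 genes were higher and 406 lower in AKAP1 null cells. Both lines are single clones and the LARP4 null lysates differ from each other (SD of the difference 0.50, against 0.26 in AKAP1 null cells). The part of clone and lysate in these counts was not tested.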

How the results depend on the processing

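The change of none of the 114 named genes switched sign under any alternative in which it was tested. Scaling moved the number of rises to 271 with TMM and 344 with DESeq2, from 896, while 1063 and 1062 of the 1063 falls were called with TMM and DESeq2 too. The share of rises among calls was 45.7% with library totals, 16.5% with TMM and 20.2% with DESeq2. With only the 8 libraries of wild-type and AKAP1 null cells, 4523 genes rose and 1868 fell, and 374 mitochondrial genes rose. Without the term per lysate (no replicate block), 97 rose and 326 fell, with 88 and 112 among mitochondrial genes, 101 falls among short and 81 rises among long mitochondrial genes and 132 falls among short genes of the other class, and 42 named genes lost their call. With the replicate number as a block across genotypes, 568 rose and 895 fell. Leaving out 1 lysate left the following ranges, a lone lysate being assumed to vary like the others. Rises went from 120 (without wild-type 1) to 4532 (without LARP4 null 1), and falls from 358 (without wild-type 2) to 1868 (without LARP4 null 2). Mitochondrial rises went from 96 to 374 and falls from 109 to 325, falls of short mitochondrial genes from 98 to 205, rises of long ones from 91 to 269, and falls of short other genes from 147 to 477. Calls in LARP4 null cells went from 0 to 5759, and between null lines from 0 to 4791. Left-out LARP4 null lysates, and left-out lysates for LARP4 null cells, for the 2 null lines and for total inputs, were chosen after seeing the data. Other minimum counts kept rises between 763 and 1249 and falls between 969 and 1266. The simulation changed only 200 genes, against 1959 called here. Its recovery of 2.5% at a log2 change of 0.5 need not hold in these data. With 2 lysates a genotype, a gene that was not called cannot be said to be unchanged.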

Other observations

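Short genes with 1 exon and with several exons were counted apart. Of 71 short genes of the other protein-coding class with 1 exon, 2 fell and 1 rose (median 0.03), against 338 falls among 845 with several exons (median -0.43). Of the 71, 42 are histone genes, of which 0 were called with edgeR (median 0.08), and the other 29 (median -0.21) held both falls, SF3B5 (0.95), a splicing factor subunit, and RTL8A (0.57). With TMM the medians were -0.15 for the 71 and -0.61 for the 845, and -0.39 for the 29. The difference between these classes was not tested.

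The long non-mitochondrial genes with the largest falls were KRT10 (1.5), SLC27A5 (1.44), KIF9 (1.30), ITGAE (1.23) and DMKN (1.23). The ITGAE transcript stood at 0.87 and 0.93 in wild-type and -0.18 and -0.48 in AKAP1 null lysates. The values of all 54 such genes are for the whole locus, and the isoform that was pulled down was not resolved. All 5 falls were also called with TMM.

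EIF4G1 was enriched in the wild-type pulldown (2.20 and 1.93) but stood at -1.61 in replicate 1 and -0.75 in replicate 2 of ribosome profiling at the OMM. HSPD1 likewise stood at 0.92 and 1.01 in the pulldown of whole transcripts and at -0.03 and -0.15 in footprints. These pairs of values come from different libraries and units and were not tested against each other.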
